A study of Mus musculus with 10 samples.

Results

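The AP-1 transcription factors measured here were 10 genes, Fos, Fosb, Fosl1, Fosl2, Jun, Junb, Jund, Atf3, Batf and Maff, picked by symbol from tables of 48897 gene rows each. All 10 symbols had a row in both tables. The series held 10 RNA-seq libraries in 4 groups. Prostate epithelial cells sorted as EpCAM+ CD45- came from male C57BL/6 mice, 3 months old, of a Probasin-Cre prostate tumour model, either with Arid1a intact (3 control libraries) or with Arid1a also deleted by the Cre (Arid1aPC-/-, 3 libraries). The controls carried the Cre-driven tumour background too, and no wild-type prostate was among these samples. Cre deletion was limited to cells in which the Probasin promoter is active. Myc-CaP, a mouse prostate cancer line of FVB background, carried an empty vector (2 libraries) or Arid1a KO made with a guide RNA and Cas9 (2 libraries). Whether the Myc-CaP libraries came from culture or from cells sorted out of tumours was not settled by the labels. Epithelium values are RPKM (reads per kilobase of gene, scaled to the reads of the library) and Myc-CaP values are TPM (a transcript unit that adjusts for gene length and gives every library the same sum). The tables were normalized separately, so each comparison below was made within one table.

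AP-1 is a dimer of basic leucine zipper proteins. FOS proteins (Fos, Fosb, Fosl1, Fosl2) cannot pair with themselves and bind DNA with a JUN partner (Jun, Junb, Jund), while JUN proteins can also pair among themselves, and most of these dimers recognise the 7-base site TGANTCA. Fos, Fosb, Jun, Junb and Atf3 are immediate-early genes, transcribed within minutes of a growth factor or stress signal carried by MAP kinases, while Fosl1 and Fosl2 usually follow later. In epithelia AP-1 acts on genes of proliferation, matrix remodelling and inflammation.

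The stretch before the transcription start was read for 9 of the 10 genes from RefSeq promoters on GRCm38.p6. Fosl1 had no promoter entry and was not searched. The windows are the 250 bases before each RefSeq start (11 in all, since Maff has several starts). Those of Fos, Fosl2 and Jun are shown because these genes differed between the epithelium groups and their windows hold one of the motifs searched. Capitals mark an NF-kB site in Fos and Fosl2 and the 8-base AP-1 variant TGACATCA in Jun, and every line is written 5′ to 3′ on the gene's strand.
Fos, chr12:85473640-85473889, plus strand: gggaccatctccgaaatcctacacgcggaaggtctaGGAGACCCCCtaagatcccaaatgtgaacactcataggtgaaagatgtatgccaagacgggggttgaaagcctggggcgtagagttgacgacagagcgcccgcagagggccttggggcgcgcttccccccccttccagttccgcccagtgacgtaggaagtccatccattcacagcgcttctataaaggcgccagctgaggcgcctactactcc
Fosl2, chr5:32136222-32136471, plus strand: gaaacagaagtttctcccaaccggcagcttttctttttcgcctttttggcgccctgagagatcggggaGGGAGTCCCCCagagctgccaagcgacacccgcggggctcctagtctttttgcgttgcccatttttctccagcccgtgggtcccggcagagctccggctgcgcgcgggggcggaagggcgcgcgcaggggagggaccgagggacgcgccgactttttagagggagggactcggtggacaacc
Jun, chr4:95052223-95052472, minus strand: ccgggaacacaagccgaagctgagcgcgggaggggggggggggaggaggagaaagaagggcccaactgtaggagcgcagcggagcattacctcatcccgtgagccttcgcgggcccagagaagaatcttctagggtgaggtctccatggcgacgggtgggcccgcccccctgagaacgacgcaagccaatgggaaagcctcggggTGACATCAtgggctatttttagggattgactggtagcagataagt

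The motifs were matched on both strands of 32851 RefSeq windows of this length. TGACATCA, which begins 45 bases before the start of Jun, also lay in a Maff window and in 2.93% of all windows. The NF-kB site (by name, since its consensus is degenerate) was found in Fos at 214 bases, in Fosb at 188 bases and in Fosl2 at 182 bases before the start, where 2 overlapping matches lie, and in a Maff window, against 5.93% of all windows. TGANTCA, present in 6.75% of all windows, was in none of the members' windows. The cAMP response element TGACGTCA (1.55% of all windows) was found in Maff only among the 9 genes read. The CArG box bound by serum response factor (1.47% of all windows) was in none of their windows. Only full matches to each motif were counted, so near matches are missed. Elements farther than 250 bases before the start were not searched. The hits are letter matches in a short window and do not show binding. Their distances run from the RefSeq starts. For several genes, among them Fosl2, Atf3 and Jund, those starts differ from the gene starts in the GENCODE positions given below.

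Arid1a itself was read first, as the check of the labels. In epithelium the control libraries had 27.8, 21.9 and 26.5 RPKM and the libraries labelled Arid1a KO had 31.1, 28.8 and 30.8 RPKM. All KO values lay above all control values, and the log2 change of 0.25 ± 0.09 (SE) missed the threshold (limma, adjusted p = 0.054, n = 3 per group). It passed, as higher in the KO, in 5 of the 14 alternatives. The summed value for the gene thus does not show the deletion in these libraries, and it cannot tell a deleted exon from the remaining transcript. In Myc-CaP the empty-vector libraries had 60.5 and 61.0 TPM and the KO libraries 39.5 and 40.3 TPM, a fall (log2 fold change -0.59 ± 0.06, limma, adjusted p = 0.0102, n = 2 per group). "KO" below means the libraries that carry that label.

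The listed epithelial markers (Epcam, Cdh1, Krt5, Krt14, Krt8, Krt18 and Cldn4) summed to 3100 to 3773 RPKM in control epithelium and 3976 to 4349 RPKM in KO epithelium. Only Epcam among them encodes a protein used in the sort. In Myc-CaP the same genes summed to only 1.30 to 1.43 TPM with the empty vector and 41.8 to 49.6 TPM in the KO, with Epcam, Krt5 and Krt18 listed at 0 in both empty-vector libraries. Leukocyte markers were present in the sorted epithelium although CD45+ cells were gated out. Read depth is unknown for both tables. From the commonest ratio between low values, the deepest epithelium library had 1.26 times the depth of KO C. In Myc-CaP the largest such ratio was 1.15, against KO 2. For TPM it compares sums of length-scaled reads and not read depth itself. These ratios held for 11.6% and 22.6% of the low value pairs compared.

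In the sorted epithelium the late FOS genes Fosl1 and Fosl2 were higher in the KO, and Jun, Jund, Fos and Atf3 were lower. Of the 10 genes, 7 passed the test (adjusted p under 0.05), 3 higher and 4 lower. The background in this comparison was high, since 57.1% of the 16275 genes tested passed, 27.5% higher and 29.6% lower. With a change of at least 1.5-fold as well, 4 of the 10 genes passed (Fosl1 and Fosl2 higher, Jun and Jund lower), against 24.5% of all genes. For 9 of the 10 genes every KO library lay on one side of every control library, as did 66.7% of all genes tested. Their log2 changes had a median of -0.14, and those of all genes tested -0.03.

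**Figure D1:**
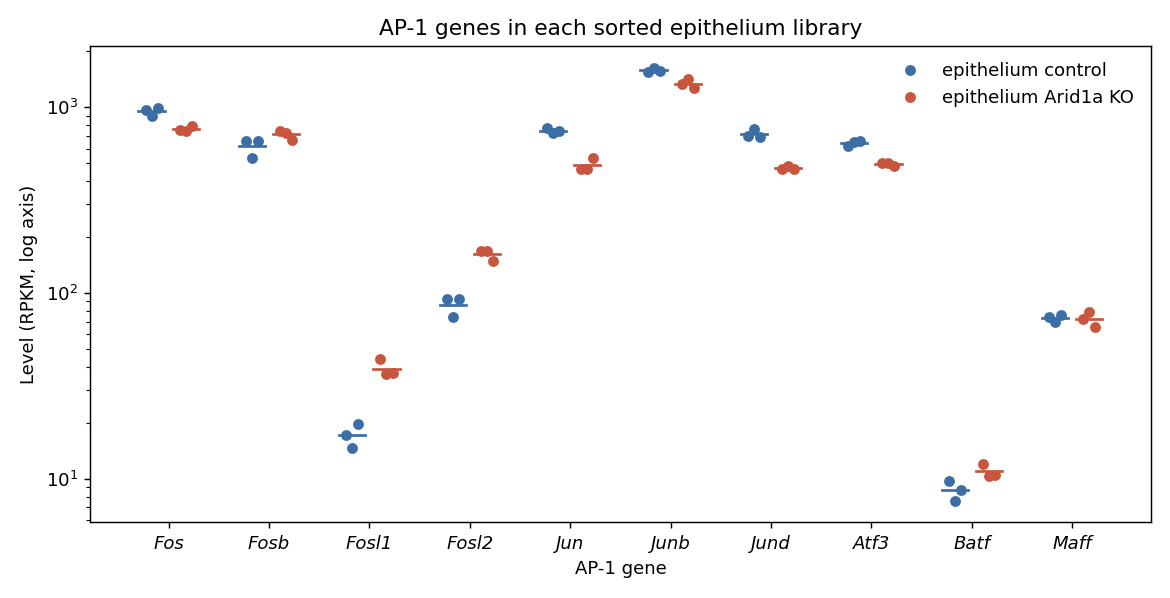
Level of each AP-1 gene in every sorted epithelium library (RPKM, log axis), with 3 control libraries in blue, 3 Arid1a KO libraries in red and a bar at each group mean. Fosl1 and Fosl2 sit higher in the KO and Jun and Jund lower, with no overlap, while the Maff points overlap.

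Among the FOS genes, Fosl1 (chr19:5447547-5455946, plus strand, GRCm38), which encodes FRA-1, a FOS protein that lacks the strong activation domain of FOS, had 17.1, 14.5 and 19.7 RPKM in the controls and 43.8, 36.5 and 36.9 RPKM in the KO. Each KO library was above each control library. The means were 17.1 ± 2.58 and 39.1 ± 4.13 RPKM (SD, n = 3), a log2 fold change of 1.15 ± 0.12 (SE, limma, adjusted p = 2.03e-04).

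Fosl2 (chr5:32135801-32157842, plus strand), which encodes the related FRA-2, had 93.3, 74.0 and 92.5 RPKM in the controls and 168.8, 168.5 and 148.3 RPKM in the KO. The groups did not overlap, and the lowest value was that of control B. Its log2 fold change was 0.90 ± 0.11 (SE, limma, adjusted p = 3.70e-04).

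Fos (chr12:85473890-85477273, plus strand), the founding member of the family, had 971, 893 and 991 RPKM in the controls and 756, 750 and 789 RPKM in the KO. All KO libraries were lower, by a log2 fold change of -0.31 ± 0.09 (SE, limma, adjusted p = 0.0186). This call was lost in 8 of the 14 alternatives, among them 4 of the 6 that leave out a library, and its adjusted p ranged from 0.00558 to 0.764 over all 14.

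Fosb (chr7:19302696-19310051, minus strand), an immediate-early partner of JUN like Fos, had 655, 533 and 662 RPKM in the controls and 748, 731 and 670 RPKM in the KO. The groups did not overlap, but KO C and control C lay close together. Its log2 change of 0.22 (95% confidence interval -0.04 to 0.48) did not pass the test (limma, adjusted p = 0.126). It passed when the libraries were scaled to the same sum (log2 fold change 0.40) or quantile normalized (0.47).

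The JUN genes had lower means in the KO, and 2 of the 3 passed the test. Jun (chr4:95049034-95052222, minus strand), the strongest activator of the family, had 770, 725 and 744 RPKM in the controls and 466, 464 and 532 RPKM in the KO. KO C was the highest of the KO libraries and still below every control. The log2 fold change was -0.62 ± 0.09 (SE, limma, adjusted p = 9.67e-04).

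Jund (chr8:70698949-70700616, plus strand), the JUN gene that is expressed steadily in resting cells, had 700, 765 and 692 RPKM in the controls and 464, 483 and 466 RPKM in the KO. The KO libraries lay within a narrow range below the controls, with a log2 fold change of -0.61 ± 0.08 (SE, limma, adjusted p = 6.57e-04). Jun and Jund kept their call under all 14 alternatives, as did Fosl1 and Fosl2.

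Junb (chr8:84974484-84978718, minus strand), a weaker activator that can oppose Jun, was the highest of all AP-1 genes, with 1558, 1637 and 1561 RPKM in the controls and 1331, 1427 and 1266 RPKM in the KO. The groups did not overlap. The log2 change of -0.24 (95% confidence interval -0.48 to -0.01) missed the threshold over all genes (limma, adjusted p = 0.0737), and its sign turned under quantile normalization (0.01). It passed, as lower in the KO, with eBayes without a trend (limma, adjusted p = 0.0257).

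Of the 3 remaining genes, Atf3 (chr1:191170296-191218039, minus strand), a stress-induced repressor that pairs with JUN, had 619, 650 and 656 RPKM in the controls and 500.3, 499.6 and 484 RPKM in the KO. All KO libraries were lower (log2 fold change -0.37 ± 0.08, limma, adjusted p = 0.0044). The call was lost under quantile normalization (log2 fold change -0.12) and when the trend on gene length was removed (-0.17).

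Batf (chr12:85686669-85709087, plus strand), a JUN partner known mainly from T and B cells, was the lowest of the 10 genes, with 9.67, 7.61 and 8.69 RPKM in the controls and 12.0, 10.3 and 10.49 RPKM in the KO. The KO libraries were all higher, although control A and KO B differed little. Its log2 fold change was 0.31 ± 0.10 (SE, limma, adjusted p = 0.0295). The call was lost without control B, without control C, without KO A and without the filter on low values, with an adjusted p of 0.00712 to 0.0972 over the 14 alternatives.

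Maff (chr15:79346621-79359076, plus strand), a small MAF protein without an activation domain, was the one member whose groups overlapped. It had 74.1, 70.1 and 76.6 RPKM in the controls and 72.6, 78.7 and 65.2 RPKM in the KO (log2 fold change -0.03, 95% confidence interval -0.22 to 0.16, limma, adjusted p = 0.768). Its sign changed with the scaling of the libraries.

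Control epithelium held these genes at very different levels per length. Immediate-early genes answer stress signals, and the part of tissue handling in these levels was not tested. Junb was followed by Fos (951 ± 51.9 RPKM, SD, n = 3), Jun (746 ± 22.9), Jund (719 ± 39.8), Atf3 (642 ± 20.3) and Fosb (617 ± 72.3), then by Fosl2 (86.6 ± 10.9), Maff (73.6 ± 3.27), Fosl1 and Batf. Neighbours in this order whose control libraries overlapped were Jun with Jund, Atf3 with Fosb, and Fosl2 with Maff. In the KO the order changed within the upper part, where Fosb (716 ± 40.9 RPKM) came close to Fos (765 ± 21.02 RPKM) with no overlap of their libraries, and Atf3 (494 ± 9.41), Jun (487 ± 39.0) and Jund (471 ± 10.6) followed. There the Jun libraries overlapped those of both Atf3 and Jund.

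The make-up of each family was compared within each library, a ratio that no scaling of whole libraries can change. Summed over Fos, Fosb, Fosl1 and Fosl2, the FOS family had 1515 to 1765 RPKM in the controls and 1644 to 1717 RPKM in the KO, which overlapped. Fos made up 55.9% to 58.9% of that sum in the controls and 44.1% to 48.0% in the KO. The share of Fosl2 was 4.89% to 5.37% and 9.02% to 10.0%, and that of Fosl1 was 0.960% to 1.12% and 2.16% to 2.55%.

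The JUN family summed to 2997 to 3126 RPKM in the controls and 2261 to 2373 RPKM in the KO. Junb made up 51.4% to 52.4% of it in the controls and 55.9% to 60.1% in the KO. The ratio of the FOS sum to the JUN sum was 0.573, 0.484 and 0.589 in the control libraries and 0.759, 0.710 and 0.726 in the KO libraries. No control library reached the ratio of any KO library. No test was made of these sums, whose members were chosen with results known.

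**Figure D2:**
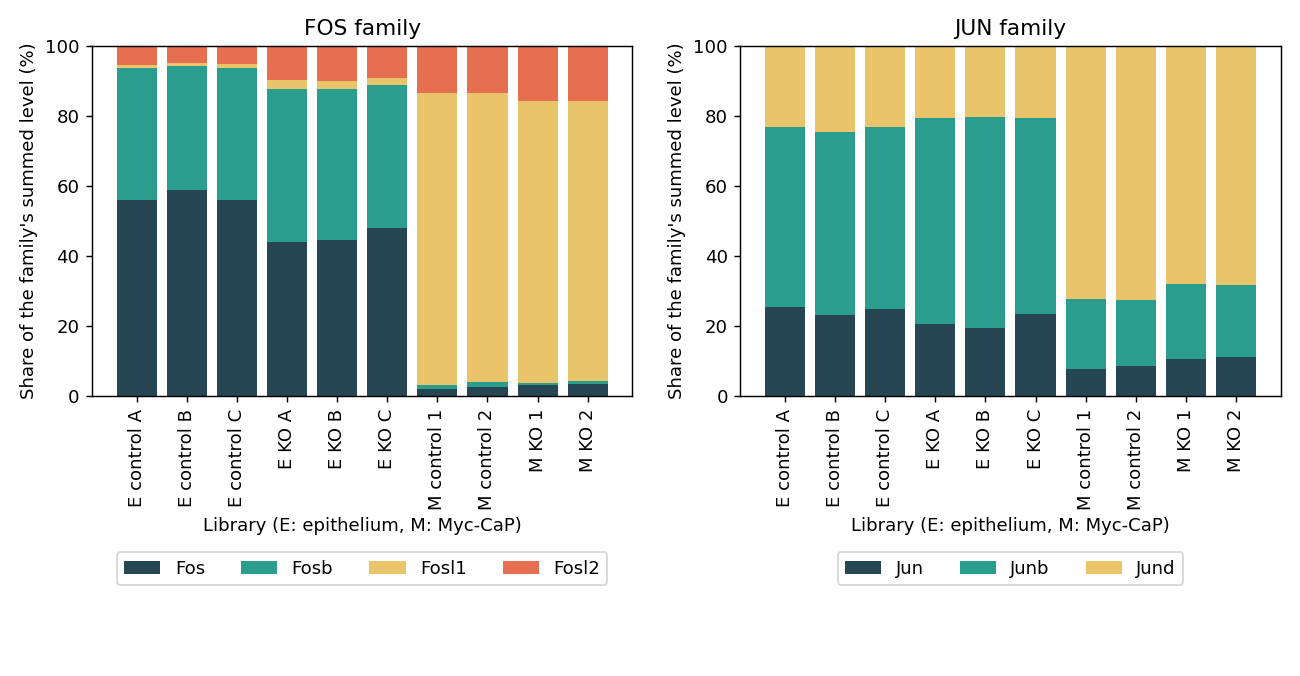
Share of each gene in the summed level of its family (%), one bar per library, for the FOS family on the left and the JUN family on the right (RPKM for epithelium, TPM for Myc-CaP, whose control is the empty vector). Fos and Fosb fill most of the FOS sum in epithelium and Fosl1 80% to 83% of it in Myc-CaP, while Junb leads the JUN sum in epithelium and Jund in Myc-CaP.

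Markers of other cells moved with the epithelium groups, and several AP-1 genes are also expressed in leukocytes. In bulk libraries fewer cells of a type and less RNA per cell cannot be told apart. Of the 6 leukocyte markers, 5 rose in the KO and Cd52 fell, with summed levels of 1031 to 1106 RPKM in the controls and 1263 to 1353 RPKM in the KO. Ptprc, which encodes CD45, rose from 28.6 ± 2.30 to 57.3 ± 0.983 RPKM (SD, n = 3). All 7 macrophage markers rose, with sums of 1964 to 2294 and 3674 to 4224 RPKM.

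The counts of the smaller lists stand beside 27.5% of all genes higher and 29.6% lower. B cell markers rose in 4 of 5 cases (sums of 125 to 140 and 430 to 751 RPKM), neutrophil markers in 3 of 6 (337 to 474 and 383 to 631 RPKM) and T cell markers in 2 of 5 (16.8 to 21.01 and 22.5 to 25.4 RPKM). Fibroblast markers fell in 3 of 6 cases (1683 to 2456 and 1401 to 1971 RPKM). Smooth muscle markers fell in 4 of 5 while Acta2 rose (114 to 133 and 96.0 to 118 RPKM), and of 5 endothelial markers Cdh5 rose and Cldn5 fell (39.5 to 47.9 and 42.4 to 52.3 RPKM). No defining marker of these lists was at 0 in all 6 libraries, and their part in the AP-1 values was not tested.

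Within the epithelial list the basal keratins Krt5 (log2 fold change 1.34) and Krt14 (2.45) rose, and Epcam (-0.59) and the luminal keratin Krt18 (-0.37) fell. The Krt18 call was lost in 3 of the 14 alternatives. The other luminal keratin Krt8 (0.03), Cdh1 (-0.23) and Cldn4 (-0.08) did not pass the test. Seminal vesicle secretory genes fell in 6 of 6 cases, from sums of 18306 to 20707 RPKM in the controls to 623 to 1573 RPKM in the KO. The sum of all RPKM values was 441646 to 473331 in the controls and 397999 to 403031 in the KO. With every library scaled to the same sum, the log2 changes of all genes had a median of 0.11 and 64.6% rather than 48.1% of the called genes were higher. Of the 10 AP-1 genes 4 were then higher and 3 lower, since Fosb gained and Fos lost its call.

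The genes around AP-1 were described by lists, with counts beside the background given above. Regulators of Fos and Jun transcription (serum response factor, its ternary complex and MEF2 partners and related factors) rose in 9 of 12 cases in KO epithelium and fell in 1, with 0.38 as the median log2 change. Mef2d (0.80), Mef2a (0.60) and Elk4 (0.60) rose most, and Srf, which binds the serum response element of Fos, fell by 0.19 on the log2 scale, a call lost in most alternatives. Of 15 MAP kinases and their activators that were tested, 5 rose and 3 fell (median 0.15). Map3k8 (0.47), Map2k3 (0.43) and Map2k1 (0.41) rose, while Mapk3, which encodes ERK1, fell from 133 ± 8.01 to 77.5 ± 9.40 RPKM (log2 fold change -0.77), and Mapk9 (-0.50) and Map2k2 (-0.34) also fell, the last with a call lost in 5 of the 14 alternatives.

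MAP kinase phosphatases, which are transcribed in response to the kinases they switch off, rose in 7 of 10 cases and fell in 1 (median 0.30). Dusp5 rose from 82.8 ± 10.7 to 225 ± 31.3 RPKM (log2 fold change 1.43 ± 0.13, limma, n = 3), followed by Dusp4 (0.74) and Dusp6 (0.71), and Dusp8 fell (-0.46). The other immediate-early genes went both ways, with 7 of 19 higher, 5 lower and a median of -0.00. Ctgf (1.09), Nr4a3 (1.03) and Nr4a2 (0.80) rose. Ier2 (-1.03), Cyr61 (-0.96) and Egr1 (-0.43) fell, and the Egr1 call was lost in several alternatives.

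Of 15 tested genes known as AP-1 targets, 13 were higher in the KO epithelium and none lower by limma, at an unadjusted p under 0.05 as well, with 0.87 as the median log2 change. Among all genes tested 27.5% were higher and 29.6% lower, and this list was chosen with earlier results of these data known. The 3 with the largest rise were Spp1 (osteopontin, 33.5 ± 0.560 to 487 ± 52.3 RPKM, log2 fold change 3.82), Mmp13 (collagenase 3, 1.43 ± 0.0665 to 8.64 ± 0.944 RPKM, 1.99) and Ptgs2 (cyclooxygenase 2, 63.0 ± 5.02 to 171 ± 18.1 RPKM, 1.42). Macrophages also express several of these genes, the marker sums above rose with them, and the part of those cells was not tested.

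Related leucine zipper genes rose in 4 of 10 cases, among them Jdp2 (0.71), which represses AP-1 sites, and Mafg (0.58), and fell in 2, Mafa (-1.21) and Batf3 (-1.01). Heat shock genes, which stress during tissue handling can induce, rose in 2 of 10 cases (Hsph1, 0.90, and Hspd1, 0.31) and fell in 1 (Hspa1a, -1.07). Their sums of 1817 to 2003 RPKM in the controls and 1673 to 2014 RPKM in the KO overlapped, and their part in the AP-1 values was not tested.

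In Myc-CaP 2 FOS genes, Fosb and Fosl1, were lower in the KO, and no other AP-1 gene passed the test. These were 2 of the 9 genes tested, against a background of 6.43% of 13974 genes, 4.54% higher and 1.89% lower. With a change of at least 1.5-fold, Fosb was the one AP-1 gene that passed, against 3.94% of all genes. For 6 of the 9 genes the libraries were fully separated, as they were for 51.5% of all genes tested. Their log2 changes had a median of -0.03, and those of all genes tested -0.01.

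**Figure D3:**
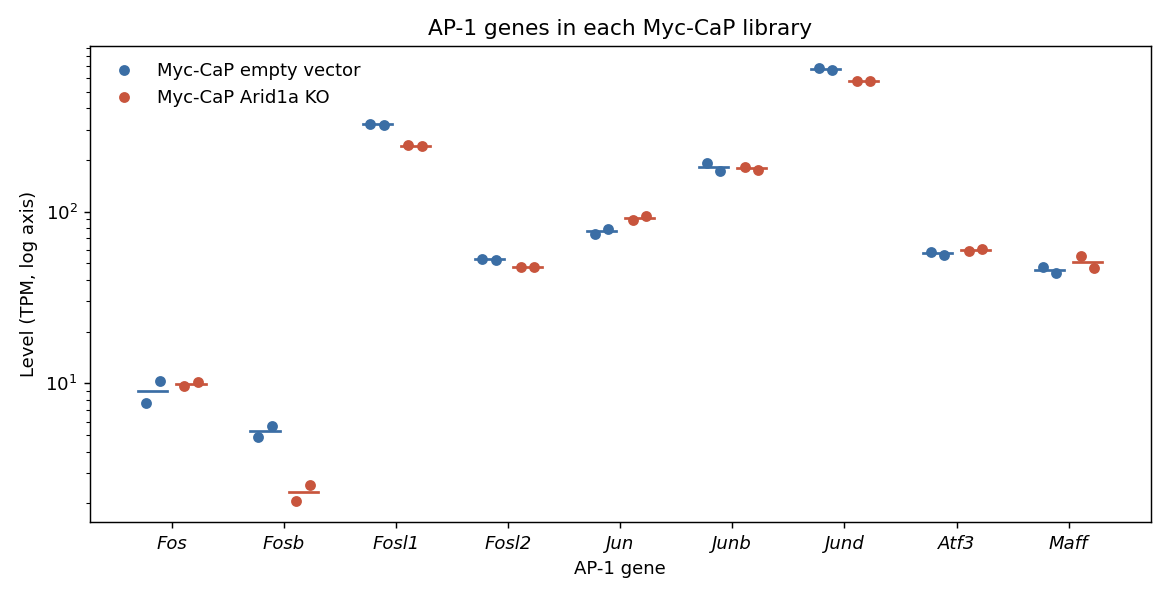
Level of 9 AP-1 genes in every Myc-CaP library (TPM, log axis), with 2 empty-vector libraries in blue, 2 Arid1a KO libraries in red and a bar at each group mean. Batf, listed at 0 in every library, is not drawn, and Fosb and Fosl1 sit lower in the KO.

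Fosl1 was the leading FOS gene of this line, with 325 and 319 TPM under the empty vector and 243 and 241 TPM in the KO. The groups did not overlap, and the log2 fold change was -0.41 ± 0.05 (SE, limma, adjusted p = 0.0168, n = 2). Fosb had 4.87 and 5.63 TPM under the empty vector and 2.08 and 2.56 TPM in the KO (log2 fold change -0.91 ± 0.15, limma, adjusted p = 0.0377, n = 2). Both calls were lost whenever any of the 4 libraries was left out, which leaves 1 library in a group whose spread is then borrowed from the other.

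Fosl2 had 52.7 and 52.5 TPM under the empty vector and 47.7 and 47.6 TPM in the KO, with no overlap. The log2 change of -0.14 missed the threshold (95% confidence interval -0.29 to 0.01, limma, adjusted p = 0.244). Fos, at 7.68 and 10.3 TPM under the empty vector and 9.65 and 10.2 TPM in the KO, overlapped between the groups (log2 fold change 0.14, 95% confidence interval -0.26 to 0.54, limma, adjusted p = 0.661).

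None of the 3 JUN genes passed the limma test in Myc-CaP, though Jund (unadjusted p = 0.00714) and Jun (unadjusted p = 0.0114) were under 0.05 before adjustment by limma. Jund had 689 and 664 TPM under the empty vector and 576.7 and 578.6 TPM in the KO (log2 fold change -0.23, 95% confidence interval -0.36 to -0.09, limma, adjusted p = 0.0773). Jun had 74.1 and 79.4 TPM and 89.4 and 94.7 TPM in the same order (0.26, interval 0.09 to 0.43, limma, adjusted p = 0.101). Neither gene's groups overlapped, while those of Junb did, with 192 and 173 TPM under the empty vector and 183 and 175 TPM in the KO (-0.03, interval -0.21 to 0.15, limma, adjusted p = 0.872).

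Atf3 had 58.4 and 56.3 TPM under the empty vector and 59.3 and 60.3 TPM in the KO (log2 fold change 0.06, 95% confidence interval -0.09 to 0.21, limma, adjusted p = 0.613), just without overlap. Maff had 47.6 and 43.9 TPM and 55.2 and 47.2 TPM in the same order, which overlapped (0.16, interval -0.10 to 0.41, limma, adjusted p = 0.437). Batf was listed at 0 in all 4 libraries and was not tested. Of the leukocyte markers, Cd52 had means of 4.65 TPM under the empty vector and 3.25 TPM in the KO, the other 5 had means of at most 0.284 TPM, and the T cell markers Cd3d, Cd3e and Cd3g were listed at 0 in all 4 libraries.

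By level per length, the order under the empty vector was Jund, Fosl1, Junb, Jun, Atf3, Fosl2, Maff, Fos, Fosb and Batf, and no neighbours in it had overlapping libraries. The FOS family summed to 387 to 390 TPM under the empty vector and 301 to 303 TPM in the KO. Fosl1 made up 82.3% to 83.3% of it under the empty vector and 79.9% to 80.4% in the KO, and Fos only 1.97% to 2.67% and 3.19% to 3.40%. Jund made up 72.2% to 72.4% of the JUN sum under the empty vector and 67.9% to 68.2% in the KO. The ratio of the FOS sum to the JUN sum was 0.408 and 0.422 under the empty vector and 0.357 and 0.355 in the KO, lower in both KO libraries.

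**Figure D4:**
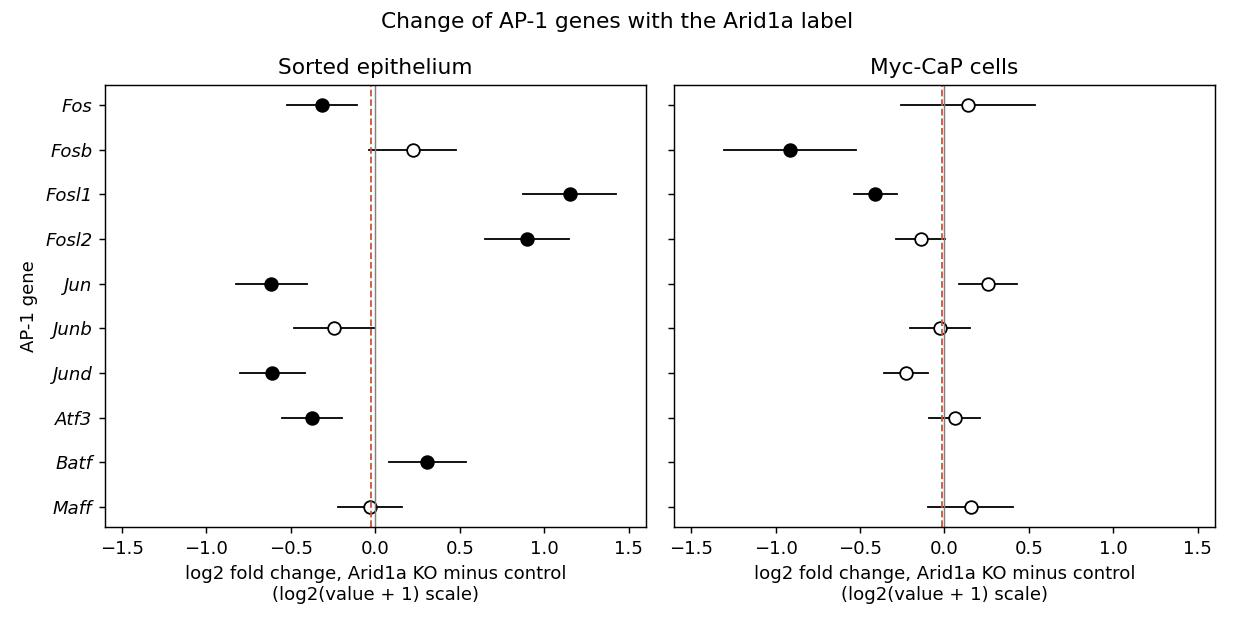
Log2 fold change of each AP-1 gene (Arid1a KO minus control, on the log2(value + 1) scale) with its 95% confidence interval from limma, for sorted epithelium on the left and Myc-CaP on the right. Filled points passed the test, the dashed line marks the median of all genes tested, and Fosl1 lies above 0 in epithelium (1.15) and below 0 in Myc-CaP (-0.41).

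Set side by side, each within its own table, Fosl1, Fosl2 and Fosb were higher in all KO libraries of the epithelium and lower in both KO libraries of Myc-CaP, while Jun and Atf3 were lower in the former and higher in the latter. These 5 of the 9 genes tested in both tables stand beside 19.2% of all 12123 genes tested in both whose libraries were likewise separated in opposite directions. Jund was lower in the KO in both, passed the test in epithelium and missed the threshold in Myc-CaP. Fosl1 was the only AP-1 gene that passed in both tables, in opposite directions. The difference between the systems was not tested, because the tables were normalized separately and differ in unit, mouse strain and cell source.

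The lists around AP-1 were also counted in Myc-CaP, where 6.43% of all genes passed. None of 14 MAP kinases and their activators passed the limma test, with 2 at an unadjusted p under 0.05, and at most 3 passed under any alternative. Of 11 regulators of Fos and Jun transcription only Mkl1, a cofactor of serum response factor, rose (log2 fold change 0.41), and of 8 related leucine zipper genes only Jdp2 (0.68). Among 8 MAP kinase phosphatases Dusp4 rose from 136 ± 2.55 to 218 ± 3.27 TPM (log2 fold change 0.68), as did Dusp16 (0.44). Other immediate-early genes rose in 3 of 17 cases, Ctgf (0.41), Gadd45b (0.38) and Zfp36 (0.36).

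Of 11 AP-1 target genes tested in Myc-CaP, Spp1 rose from 473 ± 7.59 to 1135 ± 41.5 TPM (log2 fold change 1.26), Ptgs2 rose (0.78) and Vim fell (-0.29), with a median of -0.05 over the list. Macrophage markers summed to 0.823 to 2.92 TPM under the empty vector and 1.59 to 2.58 TPM in the KO. Of 10 heat shock genes only Hsph1 passed, lower in the KO (-0.38). Medians over the other lists were 0.02 for the phosphatases, 0.05 for the immediate-early genes, -0.15 for the regulators, -0.01 for the kinases, -0.03 for the leucine zipper genes and -0.17 for the heat shock genes. The Krt8 level rose from 0.932 ± 0.201 to 39.6 ± 1.02 TPM (log2 fold change 4.40), the one call among the epithelial markers. Spp1 and Krt8 kept their calls under all 12 alternatives, and Dusp4 lost its call in the 4 that leave out a library. The calls of the other 9 genes named from these lists in Myc-CaP (Mkl1, Jdp2, Dusp16, Ctgf, Gadd45b, Zfp36, Ptgs2, Vim and Hsph1) were each lost in 6 to 8 of the 11 or 12 alternatives that gave a value.

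**Figure D5:**
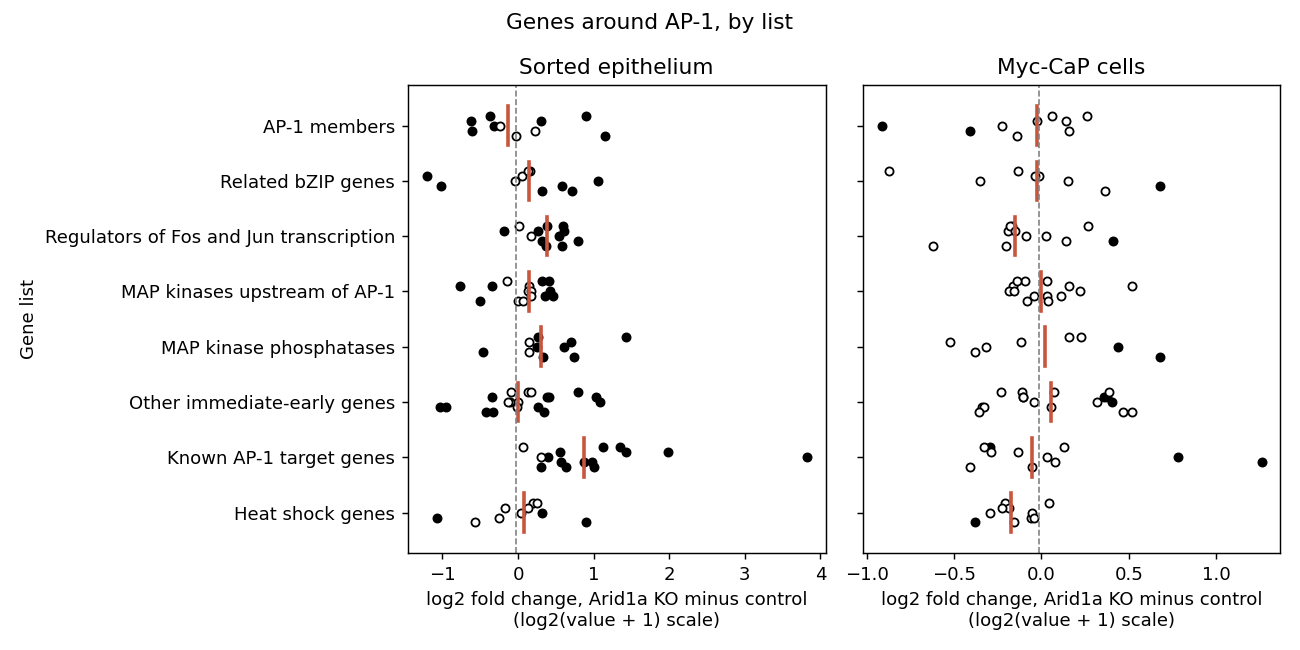
Log2 fold change (Arid1a KO minus control, log2(value + 1) scale) of every tested gene of each list, with genes that passed the test filled, the list median as a red bar and the median of all tested genes as a dashed line. The axes differ between the panels, and the AP-1 target genes have medians of 0.87 in sorted epithelium (15 tested) and -0.05 in Myc-CaP (11 tested). Mmp3, Mmp9, Mmp13 and Ivl were tested in epithelium but not in Myc-CaP.

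By position, 5 of the 10 genes overlap a gene on the opposite strand in the GENCODE M21 annotation of GRCm38. These are Fosl1 with Ccdc85b, Jun with Junos, Junb with Prdx2, Jund with Gm11175 and Atf3 with Gm24748. The study's methods state that reads were counted by strand. Whether that holds for the deposited values was not settled, and the part of these partners in them was not tested. Jun and Jund are each 1 exon block, and the exonic lengths of the 10 genes run from 1406 bases (Batf) to 9680 bases (Fosl2).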

How the data were processed

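RNA-seq was made from sorted prostate epithelium of a Probasin-Cre tumour model (3 control and 3 Arid1a KO libraries) and from Myc-CaP cells (2 and 2). For epithelium the authors deposited RPKM per gene, and for Myc-CaP the authors deposited TPM per gene. Reads were aligned with TopHat2 to mm10 and counted with HTSeq by strand per the study's methods, while the submitters' processing notes name HISAT2, HTSeq and DESeq2. The gene lengths behind the values are not given in the sources used here. Neither unit is a count, and no count model was run. Each table was fitted on its own in R 4.3.3 with limma 3.58.1 (lmFit, eBayes with a trend) on log2(value + 1), keeping genes whose mean over its libraries reached 0.5, two-sided, with Benjamini-Hochberg adjustment over all genes tested and calls at an adjusted p under 0.05. Fold changes on this scale understate those of low genes. With 3 against 3 libraries an exact permutation test cannot go below p = 0.1, so none was used. The study's methods give 3 mice per epithelium group, while the labels tie no library to an animal. For Myc-CaP the labels do not say whether replicates were separate cultures. The p-values there weigh the group difference against the spread between libraries, moderated over all genes, and that spread may be technical.

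The AP-1 genes and the lists around them were chosen with earlier results of these data known, and no list was tested as a set. All 10 AP-1 genes are named with every library, Arid1a as a check, and of each other list up to 3 genes with the largest rise and 3 with the largest fall among its called genes. A part of the genotype that both epithelium groups share and 1 gene that this rule names are not reported here. The fit was tested on simulated data, where it recovered 92.8% of changes of 1 on the log2 scale in the epithelium design (16275 genes) and 36% in the Myc-CaP design (13973 genes). The simulation changed 97 genes by 1 and 103 by 2 in epithelium, and 100 by each in Myc-CaP. It made 8 and 3 false calls. In the real epithelium values 57.1% of genes passed, a setting that was not simulated. Alternatives were another pseudocount, filter, scaling or variance model, the replicate label as a block and each library left out. Removal of a trend on gene length, known for 88.9% and 85.3% of the genes tested, was added after the data were seen. Promoters came from RefSeq (GRCm38.p6), gene positions from GENCODE M21.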

Additional observations from a re-analysis of the deposited data

Results flagged for a closer look

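For 5 AP-1 genes all KO libraries moved one way in epithelium and the opposite way in Myc-CaP, each against its own controls, as they did for 19.2% of the 12123 genes tested in both tables. Fosl1 had a log2 fold change of 1.151 in epithelium and -0.4095 in Myc-CaP. Fosl2 had 0.8999 and -0.1401, and Fosb 0.2205 and -0.9145, in the same order. Jun had -0.6165 in epithelium and 0.2591 in Myc-CaP, and Atf3 had -0.3749 and 0.06034. The differences between the systems were not tested, since the tables hold different units normalized separately, and only Fosl1 passed the test in both.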

How the results depend on the processing

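In epithelium Fosl1, Fosl2, Jun and Jund kept direction and call under all 14 alternatives, and the number of AP-1 genes called was 5 to 8 against 7. With a minimum mean of 5, fewer genes were tested and 5872 of all genes were called, 2306 of them with at least 1.5-fold. Junb turned to 0.0136 under quantile normalization. Maff turned to 0.0302 under quantile normalization, 0.1457 scaled to the same sum and 0.1359 with the length trend removed, and ran from -0.09391 to 0.03958 as single libraries were left out. In Myc-CaP the 2 calls among AP-1 genes became 1 without the filter on low values, 1 with a minimum mean of 5, which dropped Fosb, and 0 with limma's eBayes without a trend (4 at an unadjusted p under 0.05). Calls over all genes fell from 899 to 358 without the filter (285 with at least 1.5-fold, from 551) and to 451 without the trend, and the cause was not tested. Leaving out a Myc-CaP library gave 0 calls among AP-1 genes in each of the 4 cases (2 to 4 at an unadjusted p under 0.05) and 47 to 76 over all genes, and as many with at least 1.5-fold. Fos then ran from -0.05173 to 0.3345 and Junb from -0.09922 to 0.04565. The replicate numbers are shared between groups but no label ties them to a batch. Deviations of same-labelled libraries correlated at 0.0409, 0.00944 and -0.0573 in epithelium, against -0.0833 to 0.0783 for differently labelled ones. In Myc-CaP both same-numbered pairs gave 0.195 and the crossed pairs -0.195. With 2 libraries per group these are the same value by construction, apart from sign. With the replicate block 4 AP-1 genes were called in Myc-CaP, Jun and Jund in addition, and 2771 of all genes. In epithelium the block called 8823 of all genes. Among the lists in epithelium, heat shock calls rose from 3 to 6 under quantile normalization and phosphatase calls fell from 8 to 5 without KO A, while B cell calls fell from 4 to 2 with a minimum mean of 5, endothelial calls rose from 2 to 4 scaled to the same sum, and neutrophil calls ran from 2 to 5 against 3. In Myc-CaP the block raised the calls of heat shock genes from 1 to 6, immediate-early genes from 3 to 7, AP-1 targets from 3 to 6, regulators from 1 to 4, leucine zipper genes from 1 to 2 and kinases from 0 to 3, and without the filter 0 of the heat shock, immediate-early, regulator and leucine zipper genes and 1 of the targets were called. Read depth is unknown, and 2 libraries per group limit what Myc-CaP can show.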
